A study of Rattus norvegicus with 18 samples.

Results

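The genes described here are transporters and enzymes of the kidney's proximal tubule, the nephron segment that recovers most of the filtered salt, glucose, phosphate, amino acids and protein. They were measured in whole kidneys of 18 rats, with 1 Affymetrix Rat Genome 230 2.0 array per rat. The members are a list of 31 genes, and each was represented by its brightest probe set by mean log2(intensity + 16) over all 18 arrays. Of the 31, 30 had a probe set that named the gene alone, and all 30 passed the filter that left out the dimmest 40% of probe sets, out of 10483 genes tested. Slc6a19, a neutral amino acid transporter, had no such probe set in the annotation used here and was not analysed. The member named Acsm2a is called by its current symbol, Acsm2.

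The rats were 9 of the inbred Dahl salt-sensitive strain (SS/Jr, called Dahl S) and 9 of the congenic S.SHR(2), made from SS/Jr and SHR/NHsd. By its name and the series title, S.SHR(2) carries a chromosome 2 segment of the spontaneously hypertensive rat on the Dahl S background and is protected in the kidney, so the strains share the rest of their genome in principle. The design text names male rats of 4, 12 and 20 weeks, whereas the labels give an age for 2 Dahl S rats only. These are replicate 2 (4 weeks) and replicate 4 (12 weeks), and the same 2 have a labelled diet, 0.3% NaCl. No rat was therefore placed in an age group, the order in which samples were deposited was not used in its place, and each strain's spread between rats includes any effect of age. Replicate numbers below follow the order of deposit within each strain, and no label ties that order to a condition.

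Cells of the proximal tubule take solutes from the filtrate through sodium-coupled carriers on a brush border and pass them to the blood through other carriers on the basolateral side. The same cells take up filtered protein by endocytosis, secrete organic anions and cations, and make glucose from lactate and amino acids. Many of these genes depend on the transcription factors HNF1 and HNF4, and their products are lost from injured tubules.

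The comparison asked whether these genes differ in level between Dahl S and S.SHR(2) kidneys. In none of the 30 did the strain difference pass the test in the fit without covariates. The log2 differences, S.SHR(2) minus Dahl S, ran from −0.20 (Cyp2e1) to 0.27 (Ttr) with a median of 0.03, beside a median of 0.02 over all genes tested. Of the members 20 lay above 0 and 10 below, a share of 66.7% above 0 where 56.6% of all genes lay above it. By limma with Benjamini-Hochberg adjustment over all genes, 0 members were called, against 6 of 10483 genes, or 0.0572%. At an unadjusted p under 0.05 there were 2 members, Nat8 and Slc22a6, where 4.6% of all genes lay under that limit. No member had ranges that were separate in the strains, as did 8 genes of all those tested, or 0.0763%. On the log2(intensity + 16) scale the 95% interval of the difference lay within 1.5-fold either way for all 30 members, as it did for 94% of all genes. That scale understates changes of dim genes, and the interval of Ttr, a dim gene, reached 1.47-fold. Rats of both strains fell into like sets, described below, and this fit leaves the differences between those sets in the error. With 3 residual components as covariates limma called 1 member, Nat8 (adjusted p = 0.0209), and 112 of all genes, or 1.07%. Such components were taken from the strain residuals of the same genes. They leave each difference as it was and act only on its SE and p, which may be too small.

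**Figure D1:**
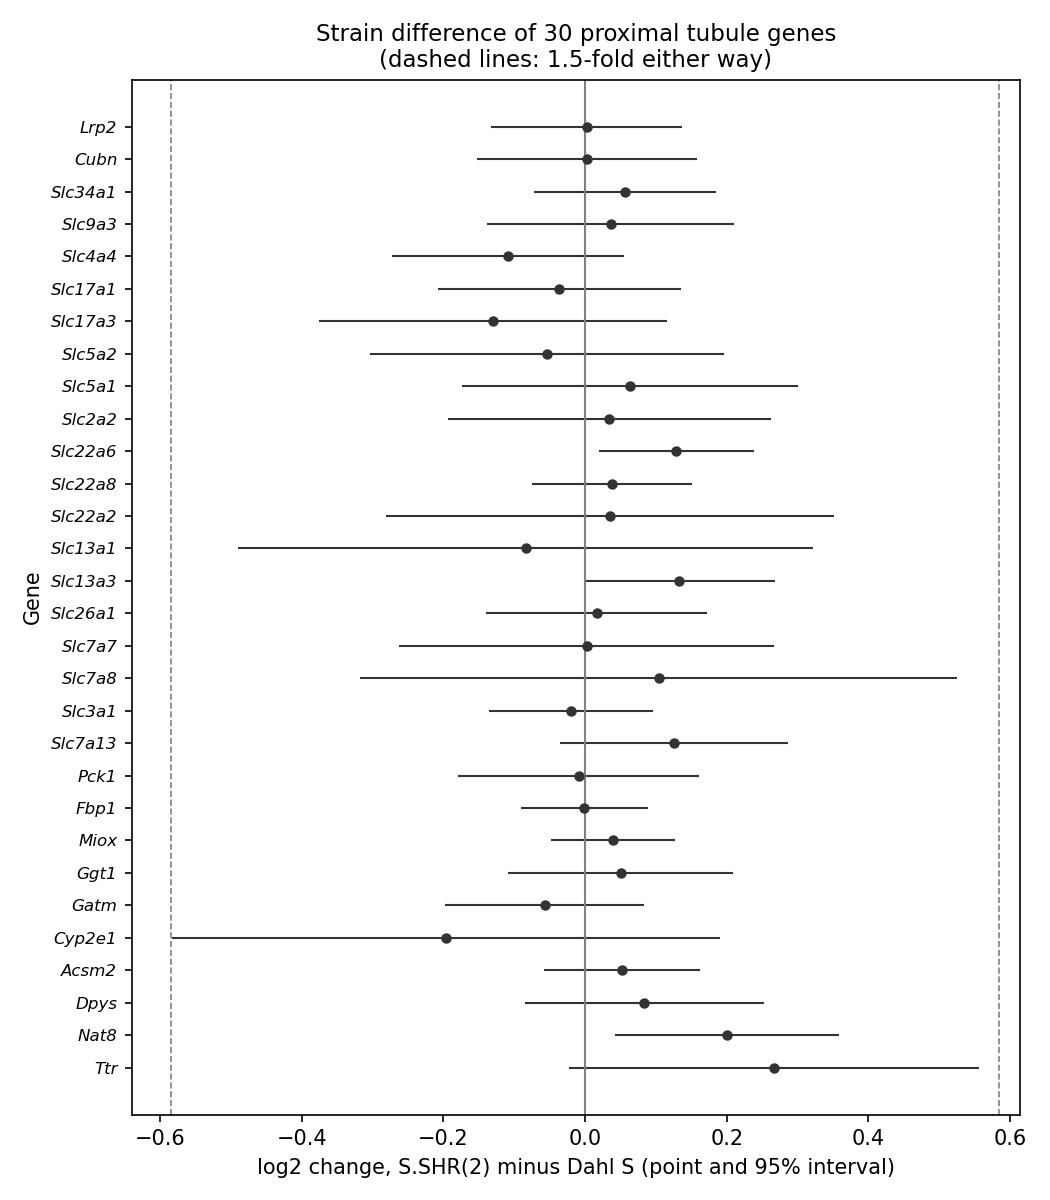
The log2 change of each of the 30 genes, S.SHR(2) minus Dahl S, is plotted with its 95% interval from limma (9 rats per strain), and dashed lines mark 1.5-fold either way. All intervals lie between the dashed lines, with Cyp2e1 at −0.20 and Ttr at 0.27 as the extremes in this fit.

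The arrays were not one uniform set. After the strain means were removed, and with the members left out, 6 arrays correlated with one another across genes at 0.474 to 0.684 and with the other 12 at −0.582 to −0.0368. The other 12 correlated with one another at −0.486 to 0.582, so they were not one uniform set either. The 6 arrays were replicates 7, 8 and 9 of each strain, and what they share is not labelled. The injury transcript Havcr1, which encodes kidney injury molecule 1, was at 664 to 1020 in those 3 Dahl S rats and at 13.4 to 476 in the other 6, and at 238 to 439 against 15.3 to 310 in S.SHR(2). Each strain holds 3 of these arrays. Without them limma called no member either (0 had an unadjusted p under 0.05), the median difference was 0.02, and the sign turned for 8 members whose differences were small. The share of all genes called in that smaller fit is not given here, so its counts are no result about the members. The GAPDH 3′/5′ ratio, a sign of RNA or labelling quality, ran from 1.19 to 2.04 in Dahl S and from 1.27 to 2.51 in S.SHR(2), and its part in any result was not tested.

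Sequence upstream of the start sites is shown because HNF1 and HNF4 are the factors best known for this cell type. In RefSeq windows of the assembly GRCr8, from 250 bases before to 50 after the start, 27 of the 30 measured members had an entry. Both strands were searched for the HNF1 core GTTAAT, the HNF4 core CAAAGTCCA and the TATA box TATAAA. The HNF1 core lay in 4 of 27 members (Slc34a1, Slc22a8, Pck1 and Miox), against 7.37% of 27457 promoters of the same length. The HNF4 core lay in Slc3a1 alone, against 0.375% of all, and TATAAA in 6 of 27, against 14.3%. Stretches before the start site follow, 5′ to 3′ on the gene's strand, with the matched letters in capitals. They are Slc34a1 (chr17:9239095-9239160, minus strand), Slc22a8 (chr1:214927161-214927226, plus), Pck1 (chr3:182348350-182348415, plus), Miox (chr7:122284481-122284546, plus) and Slc3a1 (chr6:15394800-15394868, minus).
Slc34a1: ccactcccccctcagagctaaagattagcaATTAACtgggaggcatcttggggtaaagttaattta
Slc22a8: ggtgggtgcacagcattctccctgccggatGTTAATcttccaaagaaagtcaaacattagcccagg
Pck1: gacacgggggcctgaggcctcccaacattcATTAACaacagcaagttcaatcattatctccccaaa
Miox: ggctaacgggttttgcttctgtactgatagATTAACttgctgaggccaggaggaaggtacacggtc
Slc3a1: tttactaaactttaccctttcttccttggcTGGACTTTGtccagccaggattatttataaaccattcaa
The letters ATTAAC and TGGACTTTG are the HNF1 and HNF4 cores read on the opposite strand, and the lower-case end of the Slc34a1 stretch holds the HNF1 core once more. A match is a description of these letters and shows no binding.

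Both protein uptake receptors lay at the same level in the strains within their error. Lrp2 encodes megalin, the endocytic receptor of the brush border. Its deposited intensity ran from 4088 over a median of 4718 to 5361 in Dahl S, and from 4092 over 4875 to 5812 in S.SHR(2). The ranges covered each other, and the log2 difference was 0.00 ± 0.065 (SE, interval 0.912-fold to 1.10-fold). Cubn encodes cubilin, the partner of megalin that binds albumin and intrinsic factor. It ran from 2410 over 2738 to 3260 in Dahl S and from 2372 over 2838 to 3402 in S.SHR(2), with a difference of 0.00 ± 0.075 (0.899-fold to 1.12-fold). Lrp2 and Cubn, with Slc34a1 and Slc5a2, served as defining markers of the segment, and all 4 were measured in every rat.

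Carriers of phosphate, sodium and bicarbonate had 2 differences above 0 and 3 below. Slc34a1 encodes NaPi-2a, the main brush border phosphate carrier. It ran from 4672 to 8693 in Dahl S and from 5341 to 9493 in S.SHR(2), with the 3 arrays that stand apart at the low end of each strain. Its difference was 0.06 ± 0.062, and its second probe set gave 0.00 ± 0.131. Slc9a3, the sodium-proton exchanger NHE3, was at 643 ± 57.5 in Dahl S and 672 ± 101 in S.SHR(2) (mean ± SD, 9 rats each). Slc4a4, the basolateral sodium bicarbonate carrier NBCe1, was at −0.11 ± 0.079, and its second probe set at −0.20 ± 0.132. Slc17a1 and Slc17a3 are related carriers of organic anions and urate, at −0.04 ± 0.083 and −0.13 ± 0.118. Slc17a3 in Dahl S ran from 894 over 1300 to 1667, with replicates 1 and 2 lowest at 894 and 932. The strains overlapped for every gene of this group.

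Among glucose carriers, Slc5a2 (SGLT2) recovers most filtered glucose early in the tubule and Slc5a1 (SGLT1) the rest further down. Slc5a2 ran from 603 over 736 to 1241 in Dahl S and from 602 over 748 to 985 in S.SHR(2), with a difference of −0.05 ± 0.120. The high value in Dahl S was that of replicate 1. Slc5a1 was dim, from 33.6 to 65.7 in Dahl S and from 31.7 to 75.1 in S.SHR(2), with a difference of 0.06 ± 0.114 on the log2(intensity + 16) scale, which understates changes of dim genes. Slc2a2 encodes GLUT2, the basolateral exit for glucose, and was the only member on chromosome 2. Its intensity ran from 914 over 1124 to 1456 in Dahl S and from 886 over 1223 to 1567 in S.SHR(2), so the strains overlapped. The difference was 0.03 ± 0.109 (interval 0.874-fold to 1.20-fold).

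In gene order of GRCr8, Slc2a2 was the 209th of 691 genes tested on chromosome 2. Its nearest tested neighbours were Tnik (−0.09 ± 0.171) and Eif5a2 (−0.48 ± 0.100, adjusted p = 0.0875). Pld1, on the far side of Tnik, was at 0.53 ± 0.106 (adjusted p = 0.0702). None of these passed. Genotypes were not analysed here, so whether Slc2a2 carries the SHR or the Dahl S allele in S.SHR(2) is not known from these data.

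Organic ion carriers of the basolateral membrane all had differences above 0. Slc22a6 encodes OAT1, which takes up organic anions and drugs for secretion. It ran from 2018 over 2373 to 2731 in Dahl S and from 2349 over 2653 to 3142 in S.SHR(2). The strains overlapped, although the median of S.SHR(2) lay above 8 of the 9 Dahl S rats. The difference was 0.13 ± 0.052 (interval 1.01-fold to 1.18-fold, unadjusted p = 0.0227, adjusted p = 0.999). Its neighbour in function Slc22a8 (OAT3) was at 0.04 ± 0.054, with a second probe set at 0.07 ± 0.142. Slc22a2 (OCT2), the carrier of organic cations, was at 0.03 ± 0.152. Slc22a2 varied widely in S.SHR(2), where replicates 1, 2 and 3 were at 984, 1335 and 1089 and the other 6 at 1879 to 2276. How many of all genes set these rats apart is not given here.

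Sulfate and dicarboxylate carriers gave no call. Slc13a1 encodes NaS1, the sodium-sulfate carrier of the brush border. It ran from 652 over 915 to 1559 in Dahl S and from 476 over 1028 to 1492 in S.SHR(2). In both strains the 3 highest rats were those whose arrays stand apart, at 1292 to 1559 and at 1118 to 1492. The strain difference was −0.08 ± 0.195 (interval 0.712-fold to 1.25-fold), and the second probe set gave −0.04 ± 0.155. Slc13a3 encodes NaDC3, which brings dicarboxylates such as alpha-ketoglutarate into the cell for exchange by OAT1 and OAT3. It was at 3085 ± 220 in Dahl S and 3481 ± 417 in S.SHR(2) (mean ± SD, 9 rats each), a difference of 0.13 ± 0.065 whose interval reached just below 0. Slc26a1, a sulfate and oxalate exchanger, was at 0.02 ± 0.075.

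Amino acid carriers held both steady and variable genes. Slc3a1 encodes rBAT, the heavy chain of the cystine carrier, and differed by −0.02 ± 0.056. Slc7a13, a light chain of the late proximal tubule, was at 4299 ± 672 in Dahl S and 4795 ± 511 in S.SHR(2) (mean ± SD, 9 rats each), a difference of 0.13 ± 0.077. Slc7a7 and Slc7a8 are basolateral light chains for cationic and neutral amino acids. Slc7a7 ran from 1232 over 1677 to 2859 in Dahl S and from 1472 over 1890 to 2186 in S.SHR(2), and its difference was 0.00 ± 0.127. Replicates 1, 2 and 3 were the 3 highest in each strain, at 2859, 2351 and 1912 in Dahl S and at 2016, 1980 and 2186 in S.SHR(2). The share of all genes with these rats highest in each strain is not given here. Slc7a8 ran from 114 over 177 to 341 in Dahl S and from 112 over 224 to 372 in S.SHR(2). Its difference of 0.10 ± 0.202 had the widest interval of the 30, 0.803-fold to 1.44-fold.

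Neither gluconeogenic enzyme differed beyond its error. Pck1, the cytosolic phosphoenolpyruvate carboxykinase, was at 5843 ± 941 in Dahl S and 6020 ± 1023 in S.SHR(2) (mean ± SD, 9 rats each), with a difference of −0.01 ± 0.082. Fbp1, fructose-1,6-bisphosphatase, was at 5816 ± 902 and 6085 ± 899, with a difference of 0.00 ± 0.043 and an interval of 0.939-fold to 1.06-fold. The deposited Fbp1 values of the 3 arrays that stand apart lay below those of the other 6 in each strain, at 4370 to 5083 against 5680 to 7275 in Dahl S. After quantile normalization no member was separated in this way in both strains.

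The other enzymes included the member nearest to a call. Nat8 encodes the acetyltransferase that completes mercapturic acids from cysteine conjugates. It ran from 1658 over 1924 to 2351 in Dahl S and from 1927 over 2391 to 2604 in S.SHR(2), so the strains overlapped, with 1 S.SHR(2) rat at the height of the Dahl S median. The difference was 0.20 ± 0.076 (interval 1.03-fold to 1.28-fold, unadjusted p = 0.0156, adjusted p = 0.999). With 3 residual components as covariates Nat8 passed (0.20 ± 0.044, limma adjusted p = 0.0209), the one member among the 112 genes, or 1.07%, called in that fit. The difference was the same, and the SE and p of such a fit may be too small. With 1 component Nat8 did not pass (limma adjusted p = 0.53, 0.277% of genes called). Nat8 has close relatives in the genome, and without the probes' sequences a share of their signal cannot be told apart, so its value is uncertain.

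Cyp2e1, a cytochrome P450 that oxidises ethanol and small solvents, had the lowest difference, −0.20 ± 0.186, and a wide spread. Dahl S replicates 1, 2 and 3 were at 5014, 3860 and 4278 and the other 6 Dahl S rats at 1838 to 2858. S.SHR(2) replicates 1, 2 and 3 were at 2648, 3649 and 3829 and the other 6 at 1869 to 2304. The same replicate numbers were thus the 3 highest in both strains, and in both they were the rats with the lowest Havcr1 (13.4 to 21.7 in Dahl S and 15.3 to 40.7 in S.SHR(2)). The share of all genes that set these rats apart is not given here, so this placing cannot be read as particular to Cyp2e1. Of these rats only Dahl S replicate 2 has a labelled age, 4 weeks, and among the others only Dahl S replicate 4, 12 weeks. What the rats with the lowest Havcr1 share is otherwise not labelled, and its part in the result was not tested. Leaving out 1 rat gave strain differences of −0.27 to −0.10 for Cyp2e1. The value of −0.10 was that without Dahl S replicate 1, where Slc17a3 was lowest at −0.19. Without Dahl S replicate 2 or 3 the lowest member was Slc17a3 (−0.18) or Slc13a1 (−0.16). Its interval, 0.668-fold to 1.14-fold, was among the widest of the 30.

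Of the remaining enzymes, Miox (myo-inositol oxygenase) differed by 0.04 ± 0.042 with an interval of 0.968-fold to 1.09-fold. Ggt1, the brush border gamma-glutamyltransferase, was at 0.05 ± 0.076, and Gatm, the first enzyme of creatine synthesis, at −0.06 ± 0.068. Acsm2, a medium-chain acyl-CoA synthetase, was at 0.05 ± 0.053, and Dpys, dihydropyrimidinase of pyrimidine breakdown, at 0.08 ± 0.081. Ttr, the thyroxine and retinol carrier transthyretin, had the largest difference in this fit, 0.27 ± 0.139, and one that moved with the pseudocount. It was dim, from 16.4 over 28.4 to 55.9 in Dahl S and from 25.7 over 41.6 to 49.9 in S.SHR(2), so the S.SHR(2) range lay inside that of Dahl S. The difference of Ttr was 0.40 with a pseudocount of 1 and 0.13 with one of 64, where Nat8 was largest at 0.20. Nat8 was also above Ttr with values as deposited (0.25 against 0.22), with arrays centred on their medians (0.30 against 0.26) and without Dahl S replicate 5. With array weights Slc7a8 was largest, at 0.19, and Ttr was at 0.17.

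**Figure D2:**
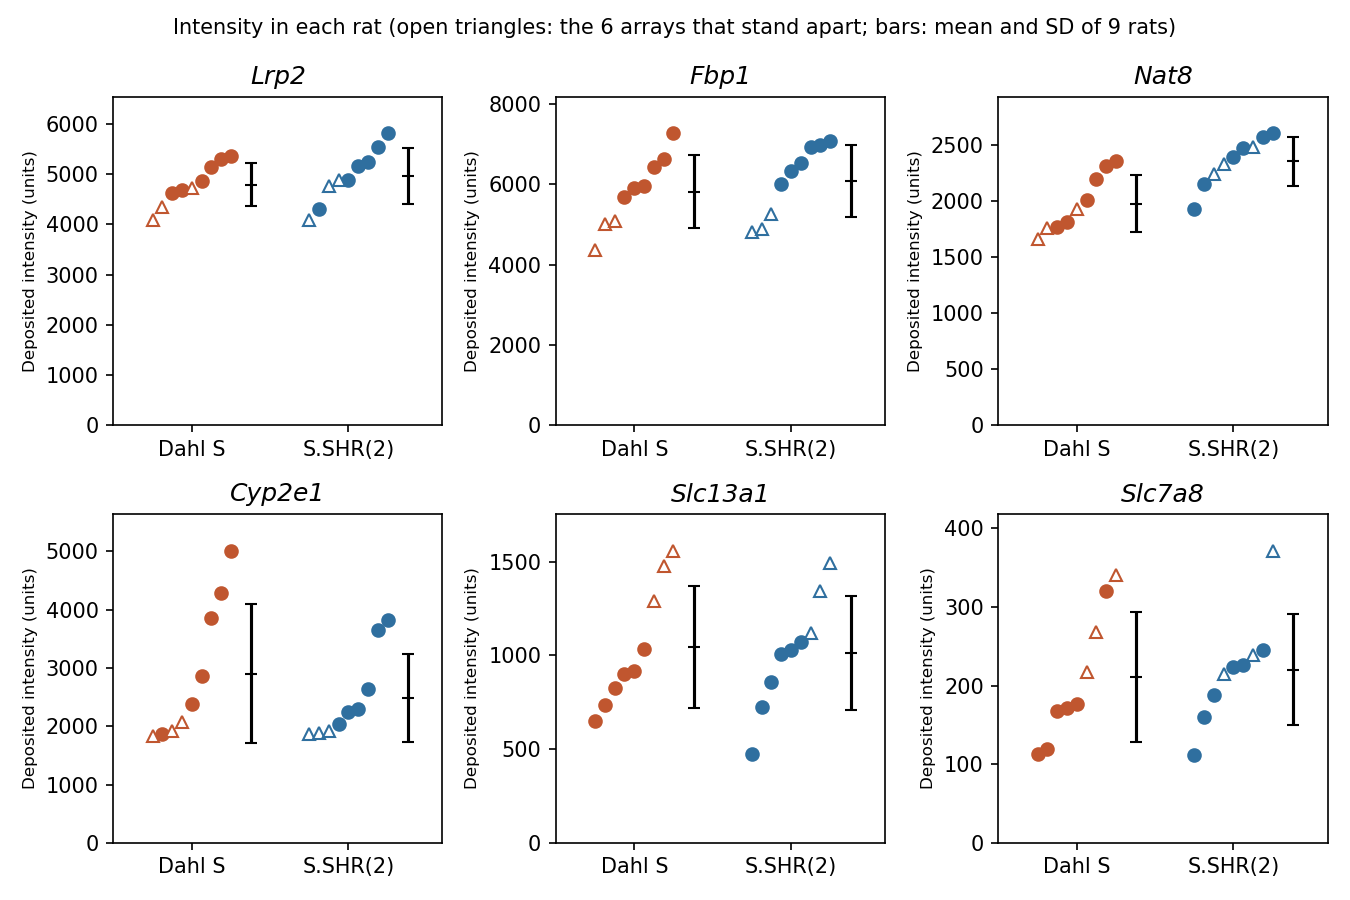
Deposited intensity is plotted for each of the 18 rats for Lrp2, Fbp1, Nat8, Cyp2e1, Slc13a1 and Slc7a8, ordered by intensity within a strain, with the mean and SD of the 9 rats of a strain beside the points and open triangles for the 6 arrays that stand apart. The strains overlap in every panel, and for Slc13a1 the open triangles are the highest points of each strain (1292 to 1559 and 1118 to 1492).

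After quantile normalization most members varied less between rats than the median gene did. The SD of the normalized log2 level over 9 rats had a median of 0.14 in Dahl S and 0.19 in S.SHR(2) over the 30 members, beside 0.22 and 0.23 over all genes tested. It lay below the median of all genes for 21 of 30 members in Dahl S and 24 of 30 in S.SHR(2). With values as deposited the gap was smaller, at medians of 0.20 and 0.21 for the members beside 0.22 and 0.23 for all genes, and 17 and 18 of the 30 members lay below the median of all genes. The members were bright, with 23 of 30 above the 90th percentile of mean level. The 1049 genes above that percentile had median SDs of 0.18 in both strains after normalization, and of 0.20 and 0.19 as deposited. These are descriptions, and no test of the members' spread against other genes was made.

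On the normalized scale the steadiest in Dahl S were Fbp1 (SD 0.068 in Dahl S and 0.072 in S.SHR(2)), Slc22a6 (0.076 and 0.10) and Miox (0.076 and 0.060). In S.SHR(2) the steadiest were Miox, Fbp1 and Slc22a8 (0.12 in Dahl S and 0.074 in S.SHR(2)). Fbp1 lay at the 0.649th percentile of all SDs in Dahl S and the 0.553rd in S.SHR(2). As deposited, its SD was 0.23 and 0.22 and that of Miox 0.20 and 0.27, while Slc22a6 was at 0.14 and 0.13 and Slc22a8 at 0.19 and 0.090. At the other end were Slc7a8 (0.52 and 0.42), Cyp2e1 (0.50 and 0.38), Slc13a1 (0.45 and 0.47) and, in S.SHR(2), Slc22a2 (0.43). These 4 lay at or above the 85.7th percentile in S.SHR(2). The SD was the larger in S.SHR(2) for 17 of the 30 members, and in Dahl S for the others. Over all genes tested it was the larger in S.SHR(2) for 5635 of 10483, a like share.

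**Figure D3:**
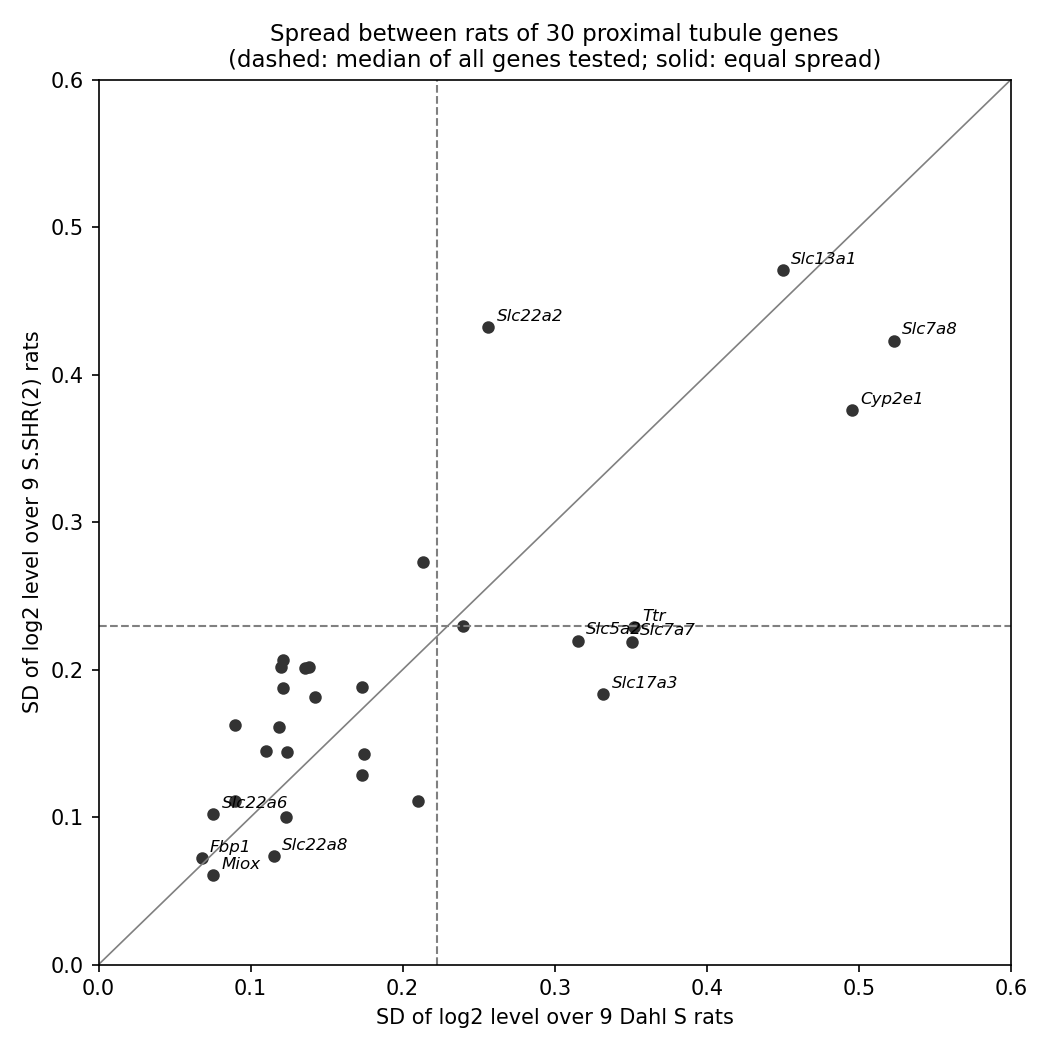
The SD of the quantile-normalized log2 level over 9 rats is plotted for each of the 30 genes, Dahl S on the horizontal and S.SHR(2) on the vertical axis, with dashed lines at the median over all genes tested (0.22 and 0.23). Most points lie below and left of the dashed lines, while Slc7a8, Cyp2e1 and Slc13a1 lie far above and right of them.

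Other proximal tubule genes gave a like picture. Of 50 in a second list, 41 were tested, 31 had a difference above 0 and 10 below, with a median of 0.04, beside 56.6% of all genes above 0. In the fit without covariates limma called none (3 had an unadjusted p under 0.05, as did 4.6% of all genes). Mme, the brush border peptidase neprilysin on chromosome 2, was lowest in p (−0.34 ± 0.088, adjusted p = 0.298) and was called with 3 residual components (limma adjusted p = 0.00568, 1.07% of all genes called). It was followed by Slc20a2, a phosphate carrier (0.21 ± 0.079), and Cryl1, an enzyme of glucuronate metabolism (0.15 ± 0.065). The transcription factor Hnf4a was at 0.13 ± 0.074, and the cystine carrier light chain Slc7a9 at 0.04 ± 0.065.

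Transcripts of other cell types were also present, as in any whole kidney, where fewer cells of a type and less RNA per cell cannot be told apart. No gene of these lists was called by limma in the fit without covariates, and 1, Dcn of the matrix list, had an unadjusted p under 0.05, as did 4.6% of all genes. Beside 112 of 10483 genes in all, or 1.07%, limma with 3 residual components called 4 genes of these lists, all lower in S.SHR(2). They were the injury genes Spp1 (−0.53 ± 0.089, adjusted p = 0.00215) and Clu (−0.35 ± 0.081, adjusted p = 0.0286), Kcnj1 of the thick ascending limb (−0.30 ± 0.071, adjusted p = 0.0395) and Calb1 of the distal tubule (−0.22 ± 0.051, adjusted p = 0.0312). With 1 component Spp1 alone of these lists was called by limma (adjusted p = 0.0148, 0.277% of all genes called). The SE and p of the fits with components may be too small, as said above. Over all genes 56.6% of differences lay above 0. Tubular injury genes had 15 of 18 differences below 0 (median −0.21, median SE 0.18), leukocyte genes 10 of 11 (median −0.19, median SE 0.20) and matrix genes 7 of 7 (median −0.18, median SE 0.16). Genes of a list were measured in the same rats, so such counts are not of independent values, and no list was tested. The medians of the thick ascending limb, distal tubule, collecting duct and podocyte lists were 0.01, −0.08, 0.02 and 0.04, over 8, 5, 10 and 6 genes. Of the fat and adrenal genes 4 were tested, with 3 below 0. The part of these lists in the members' differences was not tested.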

How the data were processed

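Each array came as linear intensities, as deposited by the authors, with 1 value per probe set. The software behind them was not given in the sources used here. All arrays had been scaled alike, since the values show a mean trimmed by 2% at both ends of 150.046 to 150.054. Of 31099 probe sets the 57 controls were left out. Intensities were transformed as log2(intensity + 16), quantile normalized because array medians spanned 0.235, and filtered of the dimmest 40% of probe sets. Fold changes are on that scale, which understates dim genes. Rats, grouped by the strain label, were taken as replicates, and nothing in the labels says how kidneys were processed together. Strains were compared with limma 3.58.1 in R 4.3.3 (lmFit, eBayes with trend, two-sided, Benjamini-Hochberg over 10483 genes, call at an adjusted p under 0.05), tested on simulated data beforehand. ± after a log2 difference is the SE. Gene names came from the platform annotation of the probe sets (20826 with 1 gene, 436 with several, 9780 with none), and 20758 matched the gene table of GRCr8. Figures used matplotlib 3.10.9.

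The members and lists were chosen with earlier results of these data known. Every member could be named, and of each other list up to 3 genes by smallest p, with Hnf4a, Slc7a9, the genes called with residual components, Havcr1 and the neighbours of Slc2a2 chosen after their values were seen. Arrays that stand apart were found by average linkage of the strain residuals of all tested genes but the members, cut into a fixed number of sets. No test was made over the order of deposit, which the labels tie to no condition. Replicates 1, 2 and 3 were set beside the other rats for Slc22a2, Slc7a7 and Cyp2e1 because of their values, as a description. Relations planned across rats (members with Havcr1, and 8 pairs of members within each strain) are not given, because the rats of each strain fell into separate sets: Havcr1 was at 13.4 to 21.7 in 3 Dahl S rats and 214 to 1020 in 6, and at 15.3 to 40.7 in 3 S.SHR(2) rats and 136 to 439 in 6. Alternatives were pseudocounts of 1 and 64, other scalings, filters of 0% and 60%, averaging the probe sets of a gene, no trend, array weights, residual components, each rat left out, and, added after seeing the data, the 6 arrays left out.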

Additional observations from a re-analysis of the deposited data

Results flagged for a closer look

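Of 60 sets of 9 rats (30 genes in 2 strains), 5 held a rat whose gap to its nearest neighbour was a large share of the whole range of normalized log2 levels by Dixon's criterion, where chance gives about 1 in 20. Order and gap are those of the normalized level, and the intensities are the deposited ones of that rat and of the rat next to it by that level. Slc4a4 in S.SHR(2) was lowest in replicate 8 (2148, next 2772), a gap of 0.526 of the range. Slc22a6 in S.SHR(2) was highest in replicate 5 (3142, next 2745, 0.561 of the range). Slc22a8 in Dahl S was highest in replicate 1 (3385, next 2916, 0.500 of the range). Ggt1 in S.SHR(2) was lowest in replicate 1 (3467, next 4748, 0.529 of the range), although replicates 7 and 9 had deposited intensities between the 2 values (4696 and 4215). This was the array with the highest GAPDH 3′/5′ ratio of the 18, 2.51. Gatm in Dahl S was highest in replicate 5 (5174, next 4567, 0.503 of the range).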

How the results depend on the processing

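Over 30 alternatives the count of members called was 0 except with 3 residual components, where it was 1 (Nat8). The members' median difference was 0.035 and ran from 0.011 to 0.036 when each rat was left out, where the count of calls was 0 throughout. With arrays centred on their medians it was 0.10, beside 0.051 over all genes, and 26 members were above 0 and 4 below, against 20 and 10, where 67.5% of all genes lay above 0, against 56.6%. That scaling turned the sign of Slc17a1 (0.029), Slc5a2 (0.0083), Slc3a1 (0.10), Pck1 (0.085), Fbp1 (0.11) and Gatm (0.022), and values as deposited that of Slc3a1 (0.059), Pck1 (0.041) and Fbp1 (0.066). Array weights turned Slc9a3 (−0.0016), Slc2a2 (−0.025), Pck1 (0.0043) and Fbp1 (0.0060). Without the 6 arrays that stand apart Slc9a3 (−0.043), Slc17a1 (0.018), Slc22a8 (−0.035), Slc22a2 (−0.093), Slc26a1 (−0.016), Slc7a7 (−0.038), Slc3a1 (0.0058) and Fbp1 (0.011) turned. Leaving out 1 rat turned the sign of 13 members, with ranges of −0.024 to 0.029 (Lrp2), −0.034 to 0.042 (Cubn), −0.011 to 0.070 (Slc9a3), −0.068 to 0.010 (Slc17a1), −0.10 to 0.028 (Slc5a2), −0.021 to 0.089 (Slc2a2), −0.027 to 0.13 (Slc22a2), −0.16 to 0.041 (Slc13a1), −0.010 to 0.055 (Slc26a1), −0.062 to 0.077 (Slc7a7), −0.044 to 0.0048 (Slc3a1), −0.035 to 0.029 (Pck1) and −0.014 to 0.012 (Fbp1). None of these was called in any of the 30, and the causes were not tested. The sign held in all 30 for 15 members, Nat8, Slc22a6, Slc13a3, Slc7a13, Cyp2e1 and Ttr among them. The alternatives planned for the relations with Havcr1 and between pairs of members were not run. No paired analysis was possible because the labels give no replicate numbers. With 9 rats a strain and no detection calls used here, dim members (Ttr, Slc5a1) are the least certain.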

Other observations

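On the deposited scale 6 members lay wholly outside the other rats of their strain, in both strains, on the 6 arrays that stand apart: Slc34a1, Slc3a1, Fbp1, Miox and Acsm2 below them and Slc13a1 above. Over all genes tested the share was 9.99%, against 20% of members. The 5 members below lay at the 99.69th to 99.97th percentile of mean level, and no share for genes as bright is given here. The arrays were picked out by the residuals of the other genes, so the 2 shares are descriptions and no test. After quantile normalization it was 0 of 30 members and 10% of all genes. The 99th percentile of intensity was 2508 to 2953 on those arrays and 2762 to 3062 on the others. For Miox the deposited ranges were 5681 to 6811 against 7634 to 8783 in Dahl S and 6119 to 6676 against 8578 to 9999 in S.SHR(2).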
